A study of Arabidopsis thaliana with 11 samples.

Results

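Shoots of Arabidopsis thaliana seedlings that overexpress CBF4 were compared with wild type shoots over all plant probe sets of a custom Affymetrix GeneChip design. The members are the 4 arrays whose titles name 35S::CBF4 lines 10 and 19 and the 3 arrays titled wild type, 7 of the 11 arrays in the series. Line 10 and line 19 are independent transformants with 2 arrays each, and both carry CBF4 behind 35S, a promoter active in most tissues and at all times, so the protein is not limited to cold or dry conditions or to the cells that normally make it. Wild type was Col-0. All seedlings were grown without stress treatment on upright MS plates under 24 h of light per day, and shoots were cut from the roots at 14 days. Each array held RNA of a pool of about 24 seedlings. The remaining 4 arrays are shoots of 35S::AtNF-YB1 lines 3 and 6, which overexpress a subunit of a CCAAT-binding factor under the same promoter and conditions; they share the estimate of spread and serve as a second comparison that uses no wild type array.

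CBF4 belongs to the CBF/DREB1 group of AP2-type transcription factors, which recognise a CCGAC core element upstream of genes that cold or drought induces. Its relatives CBF1 to CBF3 are induced by cold, while CBF4 is known for induction by drought and abscisic acid. The best-known targets are the COR and KIN genes, whose small hydrophilic proteins accumulate during cold acclimation, and plants that overexpress a CBF factor are also known for soluble sugar accumulation, cell wall changes and slow growth.

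Levels are log2 of probe set intensity after quantile normalization over the 11 arrays, with low values raised to a floor of 0.93 log2. A difference is the mean of both CBF4 lines minus the wild type mean on that scale, with the standard error (SE) of the limma fit. A probe set was called where the Benjamini-Hochberg adjusted p was below 0.05, and it counted as bright where the higher side reached the median level of 4.02 log2. The median deposited intensity of the 7 arrays ran from 12.8 to 22.7, and the arrays of CBF4 and wild type correlated at 0.963 to 0.971 across probe sets, about as the 3 wild type arrays did among themselves (0.967 to 0.974). Of the 5 measured shoot markers, genes of photosynthesis, 0 were called and their differences ran from −0.06 to 0.09. A vector 3′ end, E9, gave 504.5 to 591.3 intensity units on the CBF4 arrays, 137.1 and 88.3 on wild type replicates 1 and 2, and 1164 on the third array of that label, wild type replicate 3. Another vector 3′ end, NOS, gave 153.6 to 419.6 units on the CBF4 arrays, 0.50 and −0.44 on wild type replicates 1 and 2, and 52.3 on replicate 3, below every CBF4 array. Replicate 3 thus carries vector signal, and counts and calls that change without it are given. CBF4 itself was not among the named probe sets.

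Of 19371 plant probe sets 45 were called (0.232%), 35 higher in the CBF4 lines (0.181%) and 10 lower (0.0516%). Of the 45, 31 had a gene name and 14 had none. The difference exceeded 1 log2 unit in 27 of the higher and 5 of the lower calls, and exceeded 2 units in 13 and 1. In 41 of the 45 the CBF4 and wild type arrays did not overlap; over all plant probe sets 2.3% had every CBF4 array above every wild type array and 2.93% had every one below. Among the higher calls 26 were bright, and in 7 of the 35 all 3 wild type arrays lay at the floor. The count was 30 without wild type replicate 3, the array with vector signal, and 17 of these were among the 45. It was 27 without wild type replicate 1, 25 without replicate 2 and 89 to 130 without any single CBF4 array.

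**Figure D1:**
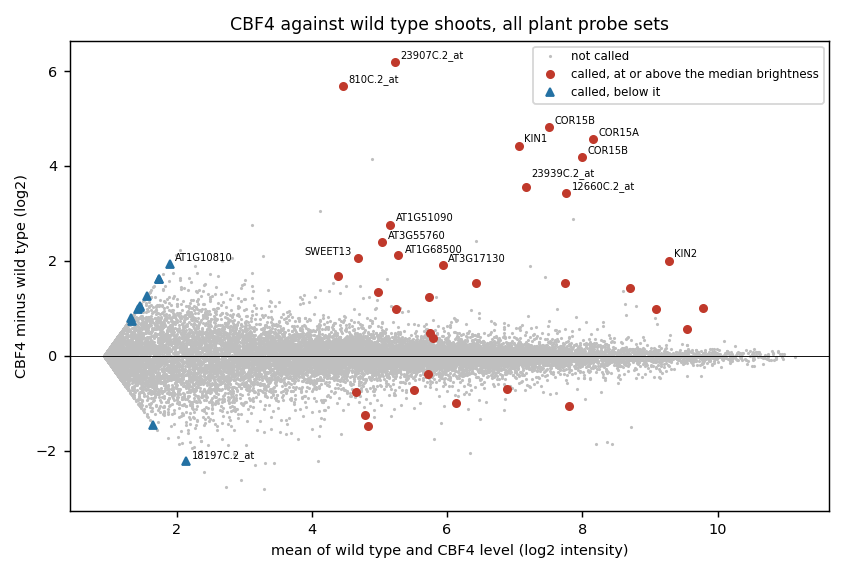
Difference between CBF4 and wild type (log2, vertical) against the mean of their levels (log2 intensity, horizontal) for every plant probe set; circles are bright calls, triangles are calls below the median brightness, and grey points were not called. The calls run from 6.19 down to −2.22, and several uncalled grey points lie as far from 0 as the called genes.

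The known cold genes set the scale of the response. COR15A, a chloroplast protein that protects membranes on freezing, lay at 6.60, 5.57 and 5.45 log2 on the wild type arrays and at 10.34 to 10.50 on the 4 CBF4 arrays. KIN1 and KIN2, neighbouring genes for small stress proteins, rose by 4.42 ± 0.31 and 2.01 ± 0.10. KIN2 started from a wild type level of 8.12 to 8.49, where KIN1 had 4.38 to 5.35, and the CBF4 arrays read 10.21 to 10.31 for KIN2 and 8.87 to 9.64 for KIN1. COR15A and both COR15B probe sets were thus at almost one level in all CBF4 arrays, with SDs of 0.08, 0.15 and 0.07 there against 0.63, 0.47 and 0.79 in wild type. Of the 22 loci on the list of CBF regulon and cold acclimation genes, 5 were measured under a name and 4 of these rose (median difference 4.19, against 0 over the 11320 genes tested, of which 24 rose and 6 fell). The fifth, the dehydrin COR47, differed by 1.37 ± 0.19 (adjusted p = 0.0815). Several of these genes are close copies of one another, and shared signal between their probe sets was not tested.

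Beyond the cold genes, 2 genes of sugar transport and starch rose. AT3G55760, known as LIKE EARLY STARVATION (LESV), a chloroplast protein that acts in starch granule formation and breakdown, lay at 3.59, 4.04 and 3.90 on the wild type arrays. The line 10 arrays read 6.35 and 5.93 and the line 19 arrays 6.82 and 5.85. The groups did not overlap, and the difference of 2.40 ± 0.27 is a 5.26-fold change (adjusted p = 0.0378). SWEET13, a sucrose exporter, read 3.25, 3.78 and 3.96 in wild type, 5.87 and 5.49 in line 10, and 5.84 and 5.65 in line 19. Both lines stood about equally far above wild type, and the difference was 2.05 ± 0.25 (adjusted p = 0.0489). SWEET10, the gene next to SWEET13 on the chromosome and of the same clade of sugar exporters, differed by 1.28 ± 0.28 without passing (adjusted p = 0.292). SWEET11, an exporter that works in phloem loading, was at −0.15 ± 0.07 (adjusted p = 0.822) from a far higher wild type level of 8.95 to 9.06. Of the 6 measured members of the 26-locus starch and sugar list 2 rose and 0 fell, with a median of 0.15. The other measured members were the starch genes PWD, DPE1 and APL3, at 0.26 ± 0.30 for PWD (adjusted p = 1) and means within 0.1 of wild type for DPE1 and APL3. The family of 16 measured sugar transport genes had 1 call, SWEET13, and a median of 0.14. Its members ran from −1.47 to 2.05. Each single array whose removal was tried ended the call of SWEET13, at a difference of 2.19 (adjusted p = 0.0922) without wild type replicate 3. AT3G55760 then stood at 2.41 (adjusted p = 0.111), and its call also ended without wild type replicate 1, wild type replicate 2 or line 10 replicate 1.

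The calls also held 4 genes whose proteins belong to pectin-related families, grouped after the calls were seen; the family of pectin enzymes by name had 3 measured genes, 0 calls and a median of 0. AT3G17130 encodes a member of the invertase and pectin methylesterase inhibitor family, whose proteins block the enzymes that remove methyl groups from wall pectin or that split sucrose. Its wild type levels were 4.95, 5.01 and 4.99, its line 10 levels 6.61 and 6.81, and its line 19 levels 7.15 and 6.996. The wild type SD was 0.03, the smallest CBF4 value lay over 1 unit above the highest wild type value, and the gene rose by 1.91 ± 0.13 (3.75-fold, adjusted p = 0.00602). The call held with any 1 of the 7 arrays left out. AT5G62350, of the same inhibitor family and among the brighter genes at 9.18 to 9.40 in wild type, rose by 0.58 ± 0.07 to 9.75 to 9.89 (adjusted p = 0.0473). AT3G09540, a pectin lyase-like protein, rose by 0.99 ± 0.08, from 4.56, 4.85 and 4.85 in wild type to 5.55 and 5.70 in line 10 and 5.84 and 5.89 in line 19 (adjusted p = 0.0133). AT3G61490, also pectin lyase-like, rose by 0.49 ± 0.05 (adjusted p = 0.0319), and its CBF4 values lay within 5.95 to 6.02. That gene was at 0.26 above wild type in the AtNF-YB1 lines as well, and CBF4 minus AtNF-YB1 was 0.23 (adjusted p = 0.217). Another inhibitor family gene, AT3G47380, was picked after its values were seen: it differed by 1.61 ± 0.25, with no overlap, and did not pass (adjusted p = 0.117). AT5G62360, next to AT5G62350 on the chromosome, was at 0.19 ± 0.48 and was not called. The share called within the inhibitor family and within the pectin lyase-like family was not counted. Any 1 of 6 arrays left out ended the call of AT5G62350, whose exception was wild type replicate 3, and 5 of 7 ended that of AT3G61490, while AT3G09540 passed without any 1 of them.

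A further 2 calls, grouped after they were seen, belong to families known from dehydration. AT4G15450 encodes a protein of the senescence and dehydration-associated (ERD7-like) type, and read 5.48, 5.59 and 5.88 in wild type, 6.97 and 7.21 in line 10 and 7.30 and 7.30 in line 19. It rose by 1.55 ± 0.13 (adjusted p = 0.0133), and the call ended without wild type replicate 1 or 2. AT2G23120, a late embryogenesis abundant protein of group 6, a class of hydrophilic proteins that build up in drying tissue, rose by 0.98 ± 0.11 from an already high 8.53 to 8.67 (adjusted p = 0.0319). Its CBF4 arrays read 9.37 to 9.71, above all wild type arrays, and its adjusted p was 0.105 without wild type replicate 3. The named late embryogenesis and dehydrin family had 7 measured genes, differences from −0.36 to 1.0, a median of 0.12 and 0 calls. LEA4-5, a drought-inducible member of that class, read 5.46, 2.73 and 2.98 in wild type and 1.48 to 5.67 in CBF4, so the groups overlapped fully (0.07 ± 1.23, adjusted p = 1). HIS1-3, a linker histone variant known for induction by drought and abscisic acid, lay at 3.59 to 4.18 in wild type and 2.57 to 3.02 in CBF4. Its difference of −1.03 ± 0.18 from wild type did not pass (adjusted p = 0.173), and the difference from AtNF-YB1, −1.75, did (adjusted p = 0.0153), in a comparison with 60 calls (0.31%). The AtNF-YB1 lines stood 0.72 above wild type for HIS1-3, which is part of the −1.75. Its probe set was below the median brightness in wild type and CBF4. The 2 measured abscisic acid and drought genes, of 14 on that list, thus gave 0 calls.

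A transcription factor and several little-studied genes completed the bright higher calls. AT1G14580, a C2H2 zinc finger protein of the INDETERMINATE DOMAIN family, rose by 1.35 ± 0.09 (adjusted p = 0.00602). Wild type read 4.28, 4.47 and 4.14 and the 4 CBF4 arrays lay within 5.57 to 5.69, and the call held with any 1 array left out. The probe set of AT1G14580 carries a suffix for shared sequence, and cross-hybridization was not tested. AT1G51090, a protein with a heavy-metal-associated domain, showed 3.996, 3.73 and 3.61 in wild type, 5.96 and 6.44 in line 10 and 6.94 and 6.82 in line 19. With 2.76 ± 0.34 it was the highest of the named calls outside the cold list (adjusted p = 0.0469), and leaving out any single array ended its call. AT1G68500, whose function is not known here, read 4.43, 4.11 and 4.09 in wild type and 5.91 to 6.60 in CBF4. It rose by 2.12 ± 0.24 (adjusted p = 0.0378), and the adjusted p was 0.118 without wild type replicate 3. AT3G62460 rose least of the named calls, by 0.37 ± 0.04 (adjusted p = 0.0282), from 5.55 to 5.65 up to 5.90 to 6.08. Its call ended without wild type replicate 1, 2 or 3 (adjusted p = 0.109, 0.0831 and 0.0863), and on unscaled values the difference was 0.22.

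**Figure D2:**
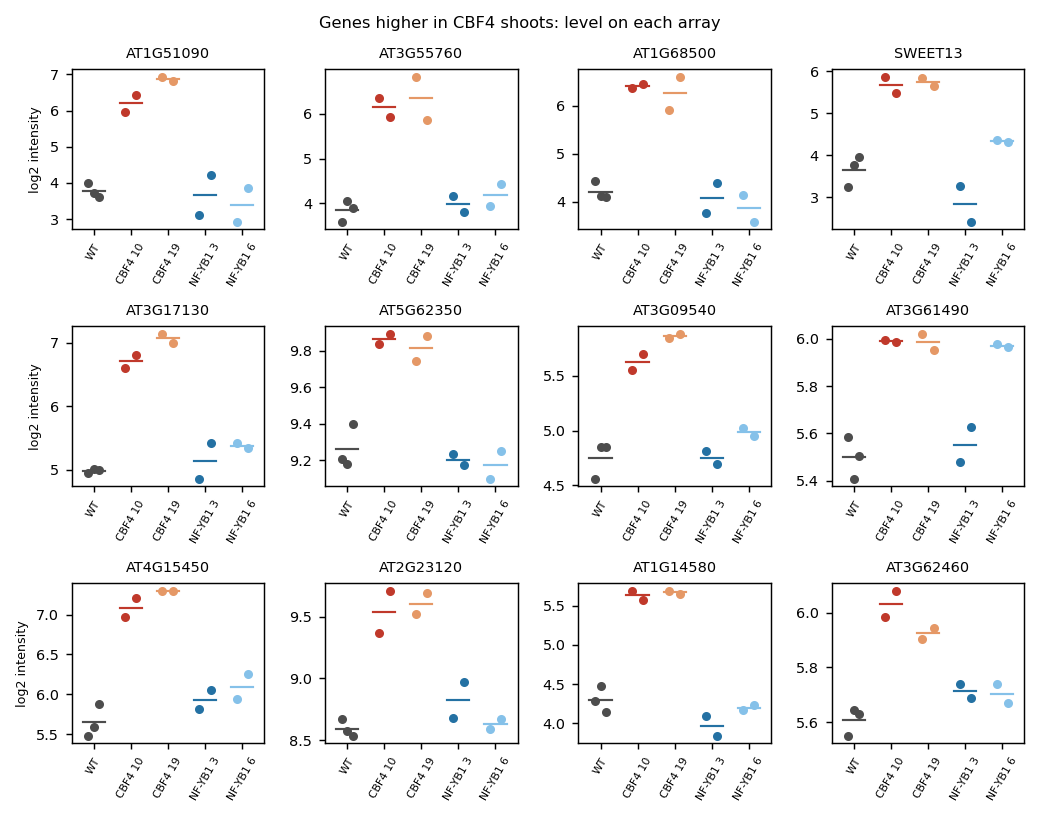
Level on each array (log2 intensity, vertical) for 12 bright genes called higher, by group: wild type (WT), CBF4 lines 10 and 19, and AtNF-YB1 lines 3 and 6; dots are arrays and bars are group means, and each panel has its own vertical range that does not start at 0. The CBF4 arrays lie above all wild type arrays in each panel, and AT3G61490 is also high in AtNF-YB1 line 6.

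Highest of the unnamed calls were MRT3702_23907C.2_at with MRT3702_810C.2_at, at 6.19 ± 0.32 and 5.69 ± 0.57 (adjusted p = 0.0017 and 0.0232). The first read 2.34, 1.37 and 2.68 in wild type and 7.98 to 8.59 in CBF4, and the second 0.93, 2.80 and 1.14 against 6.66 to 7.78. Both were 0.5 to 0.8 units higher in line 19 than in line 10, a difference within its error (0.51 ± 0.42 and 0.78 ± 0.75, adjusted p = 1). Another pair of unnamed probe sets was chosen after their values were seen. MRT3702_12660C.2_at had the smallest adjusted p of all 45, 0.00114, with 6.05, 6.02 and 6.08 in wild type and 9.25 to 9.89 in CBF4, a difference of 3.43 ± 0.13. MRT3702_23939C.2_at rose by 3.57 ± 0.27 (adjusted p = 0.00878), from 5.03 to 5.70 up to 8.60 to 9.34. The first pair differed from wild type by more, and the second pair by no more, than COR15B did at 4.81. The genes of these 4 probe sets were not identified here. MRT3702_23907C.2_at kept its call under all 19 alternatives, while MRT3702_810C.2_at lost it in 7 of 18, among them those without wild type replicate 1 or 3 or line 10 replicate 1 (adjusted p = 0.109, 0.0863 and 0.0509). The 14 unnamed calls were 0.18% of 7773 unnamed probe sets, and the 31 named calls 0.267% of 11598.

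The dim higher calls are of another kind, since their wild type arrays lay at or next to the floor, which can shrink the size of the difference. AT1G10810, an aldo-keto reductase, AT5G60470, a C2H2 zinc finger protein, and AT1G36600, annotated as a pseudogene in RefSeq, were at the floor on all 3 wild type arrays and at 2.09 to 3.01 on the CBF4 arrays. With wild type at the floor they were 1.93 ± 0.20, 1.62 ± 0.16 and 1.62 ± 0.18 log2 units higher (adjusted p = 0.0239, 0.0232 and 0.0348). Their wild type SD of 0 was set by the floor and enters the SE and p. The probe set of AT1G10810 carries a suffix for shared sequence, and cross-hybridization was not tested. The AtNF-YB1 lines were above the same wild type arrays by 1.02, 0.87 and 1.11, and CBF4 minus AtNF-YB1 did not pass in any of the 3 (adjusted p = 0.17, 0.17 and 0.465). AT5G38320, without a known role here, was at the floor in wild type and at 1.79 to 2.40 in CBF4 (adjusted p = 0.0401), and AtNF-YB1 stood 0.11 above wild type. AT2G16220, an F-box protein, read 0.93, 0.93 and 1.05 in wild type and 1.55 to 1.86 in CBF4, a rise of 0.74 ± 0.04 (adjusted p = 0.0017) at levels that stay far below the median brightness. With the floor at 1 unit AT2G16220 differed by 1.36 and AT5G38320 by 2.07, and neither passed (limma adjusted p = 0.203 and 0.145). Both calls thus depend on the floor. At the main floor the call of AT2G16220 held with any 1 array left out. The other 4 dim genes named here did not pass without wild type replicate 3 (adjusted p = 0.0863 to 0.118).

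Of the 6 named genes that fell, 2 encode transporters of one family, grouped after the calls were seen. The search by gene name found 0 loci of that family, so the share called within it is not given. A wider set of transporters by name, which holds neither gene, had 11 measured genes, 0 calls and a median of 0.02. AT3G23550, a transporter of the MATE family, which moves toxins and secondary metabolites out of cells or into vacuoles, read 5.41, 5.49 and 5.78 in wild type, 3.80 and 4.31 in line 10 and 4.04 and 4.20 in line 19. It fell by 1.47 ± 0.16 log2 (adjusted p = 0.033). AT1G71140, of the same family, fell by 0.77 ± 0.08 (adjusted p = 0.0232), from 4.87 to 5.14 down to 4.19 to 4.31. The groups did not overlap in either gene. Another MATE gene, AT1G15170, differed by −0.50 ± 0.09 from wild type (adjusted p = 0.207) and by −1.001 from AtNF-YB1 (adjusted p = 0.0117), being 0.50 above wild type in those lines. Without wild type replicate 3 the adjusted p values of AT3G23550 and AT1G71140 were 0.0925 and 0.0863, with differences of −1.36 and −0.72.

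The remaining named falls had mixed roles. AT3G04210, a protein with TIR and NBS domains as found in disease resistance proteins, fell by 1.24 ± 0.15 (adjusted p = 0.0417). Its wild type arrays lay within 5.35 to 5.45 and its CBF4 arrays within 3.89 to 4.43. The AtNF-YB1 lines were also 0.53 below wild type, and CBF4 minus AtNF-YB1 was −0.71 (adjusted p = 0.154). AT5G35735, an auxin-responsive protein with DOMON and cytochrome b561 domains, fell by 0.98 ± 0.12 (adjusted p = 0.0489), from 6.48 to 6.85 down to 5.35 to 5.89. AT1G31550, a GDSL-type lipase, fell by 0.72 ± 0.06 (adjusted p = 0.0108). The wild type arrays read 5.84 to 5.90, line 10 read 5.05 and 4.87 and line 19 read 5.31 and 5.39, so line 10 fell further, though the line difference of 0.39 ± 0.08 did not pass (adjusted p = 0.743). GER2, which makes GDP-L-fucose for the cell wall and glycoproteins, fell by 0.38 ± 0.04 (adjusted p = 0.0282), and AtNF-YB1 was 0.30 below wild type too, with CBF4 minus AtNF-YB1 at −0.08 (adjusted p = 0.672). Without wild type replicate 3 these 4 genes did not pass (adjusted p = 0.0501 to 0.126), at differences from −1.21 to −0.37. The lowest unnamed calls, MRT3702_18197C.2_at and MRT3702_19120C.2_at, were dim, at 2.92 to 3.48 and 2.11 to 2.57 in wild type and at or near the floor in CBF4 (adjusted p = 0.0146 and 0.0143). The first of them was also 1.62 below wild type in the AtNF-YB1 lines. Both lost the call without wild type replicate 3 (adjusted p = 0.0613 each), the first also without replicate 2 (adjusted p = 0.083). With the floor at the 40th percentile the first was at −0.13, and with the floor at 1 unit the second was at −2.38.

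Many further genes were lower by a similar amount but did not pass. Of 10010 bright probe sets, 56 were more than 1 log2 unit higher and 60 more than 1 unit lower in CBF4. A difference over 1 unit in each line, with no overlap between the groups, was found in 38 higher and 33 lower probe sets, of which 19 and 2 were called. Across all bright probe sets the groups failed to overlap in 3.0% upward and 3.9% downward, whatever the size of the difference. The median SD over the CBF4 arrays was 0.25 in the 38 and 0.54 in the 33, and the median SE of the difference was 0.26 and 0.35. The lower probe sets counted as bright through their wild type level and the higher ones through their CBF4 level. The SDs over CBF4 arrays were thus taken at unlike levels, and their difference is not a result about the lower genes. Over the wild type arrays the median SD was 0.398 in the 38 and 0.415 in the 33. The median difference was 1.904 in the higher and −1.60 in the lower probe sets.

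Defence genes were among those that were lower without passing. The jasmonate and ethylene defence list had 16 loci, of which the 4 defensins PDF1.2, PDF1.2b, PDF1.2c and PDF1.3 were measured. Their median was −1.83 and 0 were called. The family of jasmonate genes by name had 2 measured genes, which went opposite ways at −1.12 and 1.74, and 0 calls. PDF1.2b, secreted against fungi and a common marker of jasmonate and ethylene signalling, read 9.37, 8.66 and 10.08 in wild type and 6.88 to 7.92 in CBF4 (−1.86 ± 0.37, adjusted p = 0.242). The 4 genes are close copies, 3 of their probe sets carry the suffix for shared sequence, and cross-hybridization was not tested. AT2G43590, a chitinase of the same kind of defence proteins, read 7.29, 6.88 and 7.89 in wild type, 5.63 and 5.61 in line 10 and 4.42 and 5.59 in line 19 (−2.04 ± 0.34, adjusted p = 0.151). Its near neighbour and family member AT2G43620, looked at after its values were seen, went the other way at 2.42 ± 0.64 (adjusted p = 0.419), with a wild type SD of 1.48. The salicylate list had 2 measured of 11 loci, WRKY53 and SAG101, at −0.60 ± 0.18 and −0.31 ± 0.21 (adjusted p = 0.571 and 1). Both anthocyanin genes measured, DFR and UF3GT, were lower without passing, at −0.52 ± 0.20 and −0.62 ± 0.21.

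Some genes known from roots were measured, although the tissue was labelled shoot. The root marker list held 12 loci, of which PYK10, BGLU21 and EXPA7 were measured and 0 were called. Their differences were −0.26 ± 0.33, −0.75 ± 0.30 and −0.07 ± 0.56 (median −0.26), and EXPA7, an expansin of root hairs, read 1.11 to 2.03 on the wild type arrays and 0.93 to 2.56 on the CBF4 arrays, below the median brightness throughout. Their summed intensity was 220.4 to 497.3 units on the wild type arrays, 202.4 to 430.6 on the CBF4 arrays and 304.7 to 429.8 on the AtNF-YB1 arrays. The ranges overlapped, and PYK10, an abundant root β-glucosidase, carried most of the sum at 7.66 to 8.88 log2 in wild type. Another 10 genes known from roots or root hairs were added after the values were seen, so they carry no test as a group. The extensin genes AT3G28550 and AT3G54580, wall proteins, differed by −1.75 ± 0.32 and −1.55 ± 0.43. The peroxidase genes AT1G30870, AT4G26010 and AT4G11290 differed by −1.85 ± 0.24, −1.60 ± 0.55 and −2.001 ± 0.69, and TPS-CIN, a root terpene synthase that makes cineole, by −2.25 ± 0.51. None of the genes just named was called against wild type (adjusted p from 0.055 to 0.641). AT4G11290 overlapped, with 1.75 on wild type replicate 2 and 2.63 on line 19 replicate 2. The other added genes were also not called. AT5G46900 differed by −2.26 ± 0.84, AT3G49960 by −0.53 ± 0.31, AT5G42250 by −0.39 ± 0.32 and AT3G07070 by −0.03 ± 0.03. AT1G30870 read 2.71, 3.26 and 2.90 in wild type, the floor on 3 CBF4 arrays and 1.65 on line 19 replicate 2, and passed against AtNF-YB1 (−2.06, adjusted p = 0.022). TPS-CIN read 4.23 to 4.77 in wild type, 3.24 and 1.28 in line 10 and 1.51 and 2.68 in line 19. Less of these transcripts per cell and fewer cells of the type that makes them cannot be told apart in whole shoots, and the part of residual root tissue in these values was not tested.

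**Figure D3:**
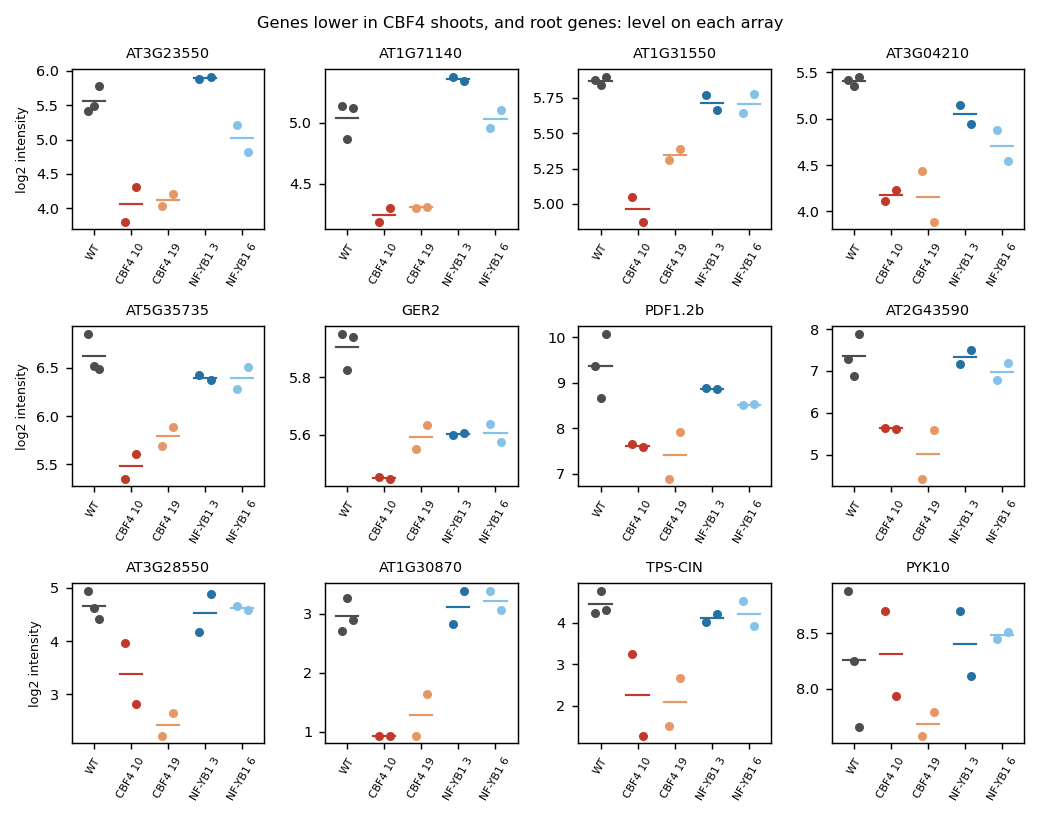
Level on each array (log2 intensity, vertical) for the 6 named genes called lower (upper row and the first panels of the middle row), for 2 defence genes and for 4 genes known from roots, by group; dots are arrays, bars are group means, and vertical ranges differ between panels and do not start at 0. PYK10 overlaps between wild type and CBF4, while the CBF4 arrays lie below the wild type arrays in the other 11 panels.

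Families were also taken by gene name. The cytochrome P450 family had 22 measured genes, a median of −0.22 and 0 calls, with CYP71B22 lowest at −1.18 ± 0.21 (adjusted p = 0.176). The 37 UDP-glycosyltransferases had a median of −0.05 and 0 calls, with UGT72B3 highest at 1.47 ± 0.22 (adjusted p = 0.104). The 41 AP2/ERF factors, the superfamily to which CBF4 belongs, had a median of 0 and 0 calls, between −0.72 and 1.13. The 22 expansin and xyloglucan genes, the 18 bZIP factors, the 15 histones and the 15 glycosyl hydrolases gave 0 calls and medians between 0 and 0.10. All members lay below wild type without a call in 2 families of 6 measured genes each. The jacalin and lectin genes ranged from −1.10 to −0.15 (median −0.58). The methionine sulfoxide reductases, which repair oxidized proteins, ranged from −0.79 to −0.14 (median −0.31). The same held in smaller families by name, with 2 chitinase and thaumatin genes at −0.655 and −0.504 and 1 abscisic acid gene at −0.082. Other small families lay wholly above wild type without a call, with 2 MYB factors at 0.016 and 0.091 and 1 NAC factor at 0.087. The median over all 11320 genes tested was 0, and the share of families on a single side was not tested. The 7 calmodulin and calcium-binding genes had a median of −0.43 and 0 calls. The 5 genes of the defensin family, which hold the 4 PDF genes above, had a median of −1.81 and 0 calls. The highest of them was at 0.175. Lists of CBF factors, gibberellin, flowering, proline and heat shock genes had 0 members measured under a name.

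Genes just short of the threshold add other functions. They were taken by smallest p among bright named genes without overlap between the CBF4 and wild type arrays. AT3G28220, a TRAF-like protein, read 5.83, 6.47 and 6.52 in wild type and 7.91 to 8.41 in CBF4 (1.90 ± 0.24, adjusted p = 0.0538), and against AtNF-YB1 it passed (1.85, adjusted p = 0.033). AT4G10630, of the glutaredoxin family, and AT4G31140, a glycosyl hydrolase of family 17, differed by 0.84 ± 0.11 and 0.81 ± 0.11 (both adjusted p = 0.0767), with AtNF-YB1 at 0.34 and 0.50 above wild type. AT2G40570, at 0.79 ± 0.11 against wild type (adjusted p = 0.0989), was only 0.05 above AtNF-YB1. AT1G33230 and AT4G12000 were 0.77 ± 0.11 and 0.61 ± 0.09 above wild type without passing (adjusted p = 0.0792 and 0.104) and passed against AtNF-YB1 at 0.88 and 0.68. AT2G27830 was at 0.74 ± 0.10. AT3G19120 was at 0.30 ± 0.04 (adjusted p = 0.0767), with 0.51 in line 10 and 0.09 in line 19, a line difference that did not pass (−0.42 ± 0.05, adjusted p = 0.261), and the AtNF-YB1 lines stood 0.45 above wild type. On the lower side APS3, an ATP sulfurylase that starts sulfate assimilation, differed by −0.62 ± 0.10 from wild type (adjusted p = 0.151) and by −0.77 from AtNF-YB1 (adjusted p = 0.0422). ATMDAR2, which recycles ascorbate, TBL45, of the family that acetylates wall polymers, AT1G33590, a leucine-rich repeat protein, AT2G30600 and AT1G71970 lay between −0.73 and −0.59 (adjusted p = 0.115 to 0.196). The lack of overlap in these higher and lower genes was a condition of their choice and is not a result.

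Both lines gave 25 calls against wild type (0.129% each), 18 higher (0.0929%) and 7 lower (0.0361%) in line 10 and 22 higher (0.114%) and 3 lower (0.0155%) in line 19. Of the 45 calls, 17 passed in both lines and 16 in neither. In the 34 bright calls the lines differed by a median of 0.14 and at most 0.78 log2 units, and 30 differed by less than 0.5. The 95% interval of that difference had a half-width of 0.12 to 1.79 (median 0.41), so line differences smaller than this were not resolved. The direct test of line 19 against line 10 called 3 probe sets (0.0155%), 2 higher (0.0103%) and 1 lower (0.00516%), all dim, at an unadjusted p below 0.05 for 663. AT5G23950, a C2 domain protein, read 0.93 and 1.05 in line 10 and 3.07 and 2.85 in line 19 (1.97 ± 0.12, adjusted p = 0.0149). AT1G48070, a thioredoxin-like protein, read 0.93 and 0.97 in line 10 and 2.33 and 2.68 in line 19 (1.56 ± 0.10, adjusted p = 0.0149). AT1G47480, a carboxylesterase, went the other way with 2.69 and 2.97 in line 10 and 0.93 and 1.29 in line 19 (−1.72 ± 0.14, adjusted p = 0.0431). Wild type lay at the floor for these genes, with 0.98 on replicate 3 for AT1G47480 as the exception, so each was raised in 1 line only; their mean over both lines was among the 45 calls. With the floor at 1 unit that mean difference was 1.59 for AT5G23950 and 1.5 for AT1G48070, and neither passed (limma adjusted p = 0.372 and 0.0965). The test of line 19 against line 10 then gave 4 calls, and 0 of them were among these 3.

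**Figure D4:**
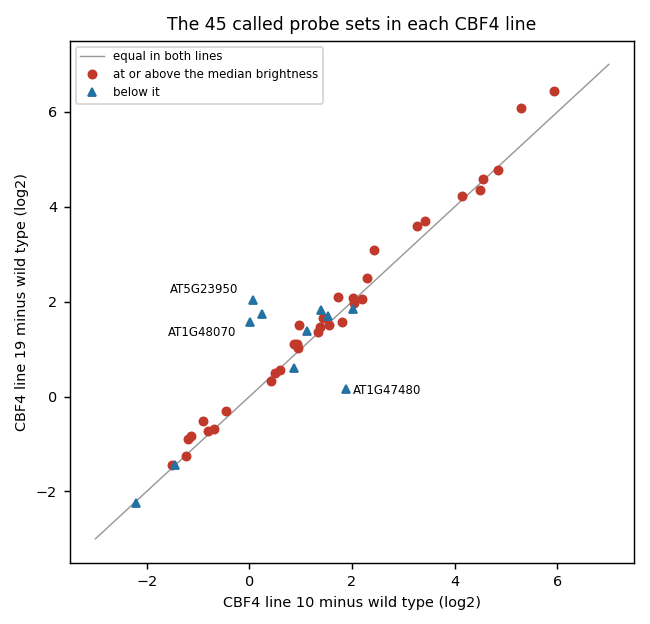
Difference from wild type (log2) in CBF4 line 10 (horizontal) and line 19 (vertical) for the 45 called probe sets, with the line of equal values; both axes use the same 3 wild type arrays. Bright calls (circles) follow the line, and the 3 labelled dim calls (triangles) lie off it.

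**Figure D5:**
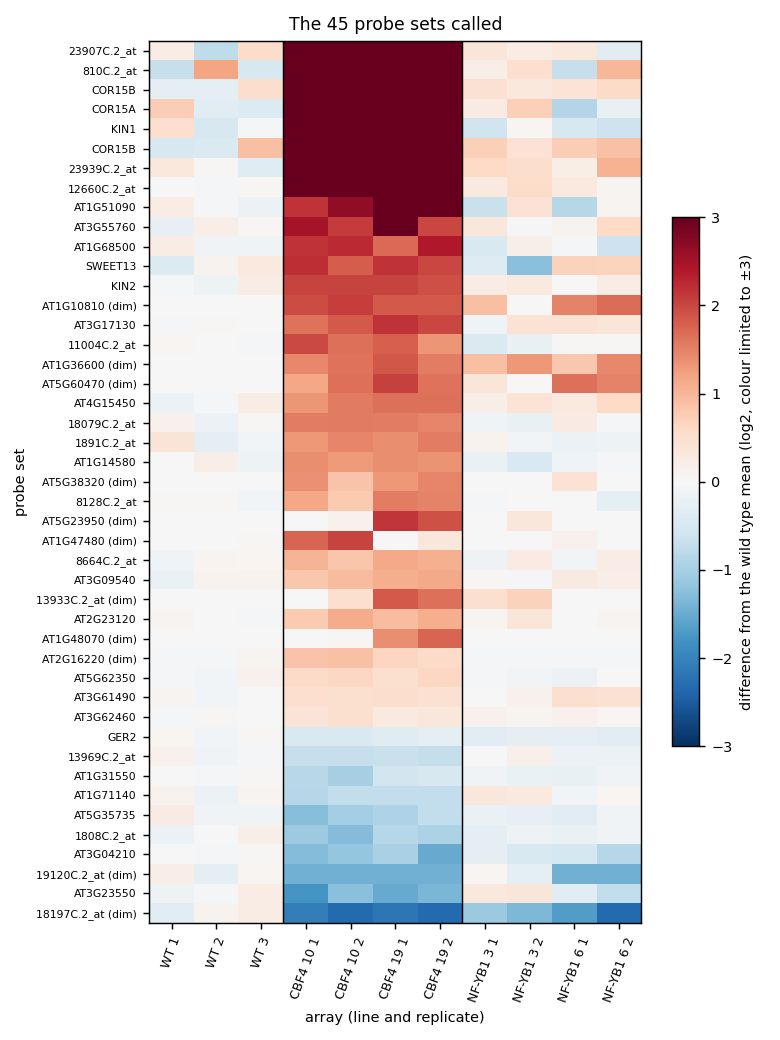
Difference of each array from the wild type mean (log2, colour limited to ±3) for the 45 called probe sets in order of their difference, with wild type, CBF4 and AtNF-YB1 arrays divided by lines. The 4 CBF4 columns share one sign down most rows, and AT1G10810, AT1G36600, AT5G60470 and MRT3702_18197C.2_at are also shifted on AtNF-YB1 arrays.

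Of the 31 named calls, 9 passed with any single one of the 7 arrays left out: COR15A, both probe sets of COR15B, KIN1, KIN2, AT3G17130, AT1G14580, AT3G09540 and AT2G16220. Without wild type replicates 1, 2 or 3 the number of the 31 that still passed was 9, 12 and 11, and without one CBF4 array it was 21 to 25.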

How the data were processed

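RNA was isolated with an RNeasy kit, amplified with MessageAmp and labelled with biotin, per the labels' protocols. The deposited intensities, 1 per probe set, are linear, with 13.4% of plant values below 0; how the authors summarized, background-corrected or scaled them is not given in the sources used here. From these, 284 control probe sets were left out, 19374 (3 of them vector 3′ ends) were quantile normalized over 11 arrays, floored at the 20th percentile (1.90 units) and taken to log2; 1487 lay at the floor on every array. limma 3.58.1 (R 4.3.3; lmFit, eBayes, two-sided) fitted 5 line groups without a block, with 6 residual and 6.64 total degrees of freedom, and adjusted p by Benjamini-Hochberg over all 19374. The number of arrays limits the precision. Replicates are called biological in the series text; no growth batch is named, so p-values measure the spread between pools. Line 19 is so numbered in the titles, while the study design lists a further number beside it.

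Names came from an old platform annotation; 11547 of 11598 named probe sets matched RefSeq (TAIR10.1), covering 11320 loci. That annotation gives no build, so no coordinates are given. Lists took 1 probe set per gene, the brightest, and carry no test. The rule for named genes took every named call, the 2 highest and 2 lowest unnamed calls, up to 10 bright, non-overlapping genes per direction short of the threshold, up to 4 members per list and up to 5 line differences per direction. The members, lists and rules were chosen with earlier results of these data known. Promoter motifs were not analysed here. Figures used Python 3.11.15 and matplotlib 3.10.9. Alternatives concerned normalization, floor, dim probe sets, grouping, blocks, variance prior, array weights and leaving out each array.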

Additional observations from a re-analysis of the deposited data

Results flagged for a closer look

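Of the named probe sets, 73 were tested for 1 array far from the other CBF4 arrays, and 5 had one; chance alone gives about 1 group in 20. In each case the gap to the nearest of the 4 CBF4 arrays took more of their whole range than Dixon's 95% critical value for 4 samples. The gap was 0.962 of the range for AT2G43590, where line 19 replicate 1 was lowest at 4.42 log2, and 0.858 for CYP71B22, where line 19 replicate 2 was highest at 3.88. It was 0.872 for UF3GT, where line 19 replicate 2 was lowest at 4.10, and 0.891 for AT1G71140, where line 10 replicate 1 was lowest at 4.19. For KIN2 it was 1.0, since 3 arrays had the same value of 10.31 and line 19 replicate 2 had 10.21.

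The lines differed by a test of the difference itself in AT5G23950, by 1.97 log2 (line 19 minus line 10), in AT1G48070, by 1.56, and in AT1G47480, by −1.72. All 3 lay below the median brightness. With the floor at 1 unit the test of line 19 against line 10 gave 4 calls, and 0 of them were among these 3.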

How the results depend on the processing

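Over all alternatives, 1377 values of single named probe sets were recomputed: 1078 kept direction and side of the threshold, 235 lost a call, 51 gained one and 13 changed sign. CBF4 against wild type gave 5 calls on unscaled values, 25 with the 7 arrays alone (14 of them among the 45) and 149 with line as a random block; single arrays left out gave 25 to 130. CBF4 against AtNF-YB1 gave 9 on unscaled values and 117 with line as a random block, and 44 to 159. Line 10 against wild type gave 15 with arrays centred on medians, 1 unscaled, 13 with the 7 arrays and 38 with dim probe sets left out, and 12 to 122. Line 19 against wild type gave 0 unscaled (limma, 510 at an unadjusted p below 0.05), 16 with the 7 arrays and 39 with dim probe sets left out, and 24 to 109. Line 19 against line 10 gave 7 with the 7 arrays, 0 unscaled and 0 with dim probe sets left out (limma, 301 and 217 at an unadjusted p below 0.05) and 7 at the higher floor, and 0 to 98 (684 to 743 at an unadjusted p below 0.05 where a wild type array was left out and 0 were called).

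The titles share replicate numbers, and nothing in the labels ties same-numbered arrays to each other. Deviations of same-numbered arrays correlated at −0.47 to 0.41 between groups: 0.34 between the CBF4 lines, −0.13 to −0.35 between wild type and the CBF4 lines, and 0.41 and −0.47 between CBF4 line 10 and AtNF-YB1 lines 3 and 6. As these do not share a sign, the numbers were not taken as pairs. With it as a replicate block the counts were 13, 21, 10, 9 and 0 (limma, 756 at an unadjusted p below 0.05) for CBF4 against wild type, CBF4 against AtNF-YB1, line 10, line 19 and the line difference, and 5 of 31 named calls passed.

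Sign changes were PSAE-1 at 0.05 with arrays centred on medians; SBPASE at −0.03 and PSBW at −0.06 unscaled, where the median of all probe sets shifted by −0.099; LEA4-5 at −0.30 with the replicate block, −0.49 with array weights, and −0.85 to 0.99 with single arrays left out; EXPA7 at −0.48 to 0.34 and PYK10 at −0.56 to 0.05 with single arrays left out. The cause was not tested. A floor at the 10th percentile, below 0, was not run; a floor at 1 unit, added after seeing the data, gave 34 calls.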

Other observations

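Some bright genes with a difference over 1 log2 unit in each line and no overlap between the groups did not pass, and were picked after their values were seen. AT1G16850, a small membrane protein gene, was at a mean of 2.82 ± 1.46 (SD, n = 3) in wild type and 6.97 ± 0.19 (SD, n = 4) in CBF4, a difference of 4.15 ± 0.69 (SE, limma adjusted p = 0.146), larger than in any uncalled named gene of that group. AT4G30650, of the family of low temperature and salt responsive membrane proteins, differed by 1.09 ± 0.21 (adjusted p = 0.236). AT4G12490, a lipid transfer-like protein, differed by 1.67 ± 0.32 (adjusted p = 0.218), and WSD1, a wax ester synthase, by 1.39 ± 0.33 (adjusted p = 0.361). On the lower side UGT72E2, which glucosylates lignin precursors, differed by −1.36 ± 0.29 (adjusted p = 0.276), and AT3G15356, a legume lectin, by −1.14 ± 0.27 (adjusted p = 0.355).

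Some genes next to a called gene, picked after their values were seen, gave the following. AT4G15460, next to AT4G15450, differed by 1.28 ± 0.43 (adjusted p = 0.63). AT1G51080, next to AT1G51090, differed by 0.75 ± 0.21 (adjusted p = 0.466), and CRR41 on the other side by −0.14 ± 0.28. The neighbours of AT3G55760 were at −0.02 ± 0.05 and 0.06 ± 0.08.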
